A study of Homo sapiens with 6 samples.

Results

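The olfactory receptor genes of human chromosome 11 were examined in ACHN cells, an established renal carcinoma line, that carried ZCCHC8 (ZCCHC8-WT) or lacked it (ZCCHC8-KO). Members were the protein-coding genes on chromosome 11 of a RefSeq gene table (GRCh38.p14) whose symbol is OR, a number, letters and a number. The rule found 171 genes, of which 168 have coordinates on the chromosome itself and were analysed, among 19866 protein-coding genes in all. The other 3 (OR8U8, OR8U9 and OR9G9) are placed on alternate sequences and have no value here. By family number, 55 members belong to class I (23 OR51, 25 OR52 and 7 OR56 genes) and 113 to class II. The rule uses names and positions and no measured value.

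Olfactory receptors are G protein-coupled receptors that bind odorants at the surface of sensory neurons of the nose, each of which chooses 1 receptor allele out of the whole repertoire. Class I receptors resemble those of fish and tend to bind polar odorants such as carboxylic acids, while class II receptors make up most of the mammalian repertoire. The receptors not chosen are kept silent in those neurons by heterochromatin that is marked mainly by methylation of lysine 9 of histone H3. H3K27me3 is a different silencing mark, written by Polycomb repressive complex 2, of which EZH2 is the catalytic subunit. ZCCHC8 is the scaffold of NEXT, a complex of the nucleus that delivers unstable transcripts to the RNA exosome.

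Chromatin from cells of each genotype was precipitated with an antibody against H3K27me3 or against EZH2 and sequenced, and the series title names the question of how NEXT regulates H3K27me3. There was 1 library per antibody and genotype, so no difference between genotypes has a replicate check, none was tested, and intervals cover counting error only. The labels do not say whether the KO cells are 1 clone. The values are positions of peaks in 4 deposited lists (93095 H3K27me3 peaks in WT and 69840 in KO, 30734 EZH2 peaks in WT and 19566 in KO), with a read depth not given in the sources used here. The lowest listed score was 5 in WT and 4 in KO, and genome-wide KO/WT ratios of peak numbers, 0.750 for H3K27me3 and 0.637 for EZH2, stand beside every count below; their part in these counts was not tested. Peaks carry no information on expression. Of 8 renal epithelial genes listed, 1 had H3K27me3 peaks in the gene or within 5 kb of it, namely CDH6, a kidney cadherin, with 8 in each genotype. CDH6 also had 5 EZH2 peaks in WT and 3 in KO, and KRT8, a keratin, had 1 EZH2 peak in WT. The others, among them PAX8 and PAX2, transcription factors of the kidney lineage, had no peak in any list.

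A member was called marked where 1 or more peaks overlapped the gene or the 5 kb on either side of it. In WT cells 58 of the 168 receptor genes (34.5%) were marked by H3K27me3, beside 26.0% of all protein-coding genes, and in KO cells 40 (23.8%), beside 23.1%. EZH2 peaks were rarer there: 14 members (8.33%) were marked in WT, beside 27.1%, and 9 (5.36%) in KO, beside 18.4%. In windows of gene plus 5 kb the receptors thus stood above the background for the histone mark in WT, close to it in KO, and below it for EZH2 in both genotypes. Receptor genes are short, with a median of 1103 bp, and a median window of 11103 bp against 34469 bp for all genes. With windows of equal size, 5 kb on both sides of each gene's midpoint, H3K27me3 marked 42 members (25%) in WT and 29 (17.3%) in KO, beside 11.0% and 9.99% of all genes, so above the background in both genotypes. In these equal windows EZH2 marked 10 members (5.95%) in WT and 7 (4.17%) in KO, beside 7.80% and 4.75%, a smaller gap than with gene plus 5 kb. These equal windows were added after the first counts were seen. Inside the genes themselves, H3K27me3 peaks lay in 18 members (10.7%) in WT and 17 (10.1%) in KO, beside 19.1% and 17.0%, and EZH2 peaks in 6 (3.57%) and 5 (2.98%), beside 22.1% and 14.9%. In these whole genes, which differ in length, the receptors stood below the background in all 4 lists, so the side of the background depends on the window.

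The class I genes carried most of the H3K27me3 count in WT and all of the net difference between genotypes. H3K27me3 marked 35 of the 55 class I genes in WT and 17 in KO, and 23 of the 113 class II genes in each genotype. The class I genes had a median covered share (bp of the window under peaks) of 1.79% in WT and of 0 in KO. Class II genes had a median of 0 in both genotypes, as did all protein-coding genes. The median distance from a class I gene to its nearest H3K27me3 peak was 3.31 kb in WT and 18.9 kb in KO. For class II genes it was 35.0 kb and 33.0 kb, and for the 1129 other genes of chromosome 11 it was 28.2 kb and 28.9 kb. Since all class I genes lie in 1 cluster and neighbours share peaks, these genes are not independent of each other: the 168 windows merge into 122 separate stretches.

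Which genes were marked differed between the lists more than the totals show. Of the members, 22 (13.1%) were marked by H3K27me3 in both genotypes (18.1% of all genes), 36 (21.4%) in WT alone (7.92% of all genes) and 18 (10.7%) in KO alone (4.95% of all genes). The 36 comprised 23 class I and 13 class II genes, and the 18 comprised 5 class I and 13 class II genes. Among class II genes the equal totals therefore stood for partly different genes, with 10 genes marked in both lists. Of the KO H3K27me3 peaks along the receptor clusters, 91.5% had a low score, from 4 to 6, beside 44.9% of the WT peaks. The shares on the rest of chromosome 11 were 82.02% in KO and 37.98% in WT. A gap in score between the lists was thus not particular to the clusters. Whether lists from the same genotype would differ as much in the genes they mark was not tested. By covered share, 47 members were lower in KO (18.2% of all genes were) and 29 were higher (12.8% of all genes). No peak of any list reached 89 members, 13 of class I and 76 of class II. The matching share of all genes was not counted, so this number has no background beside it.

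**Figure D1:**
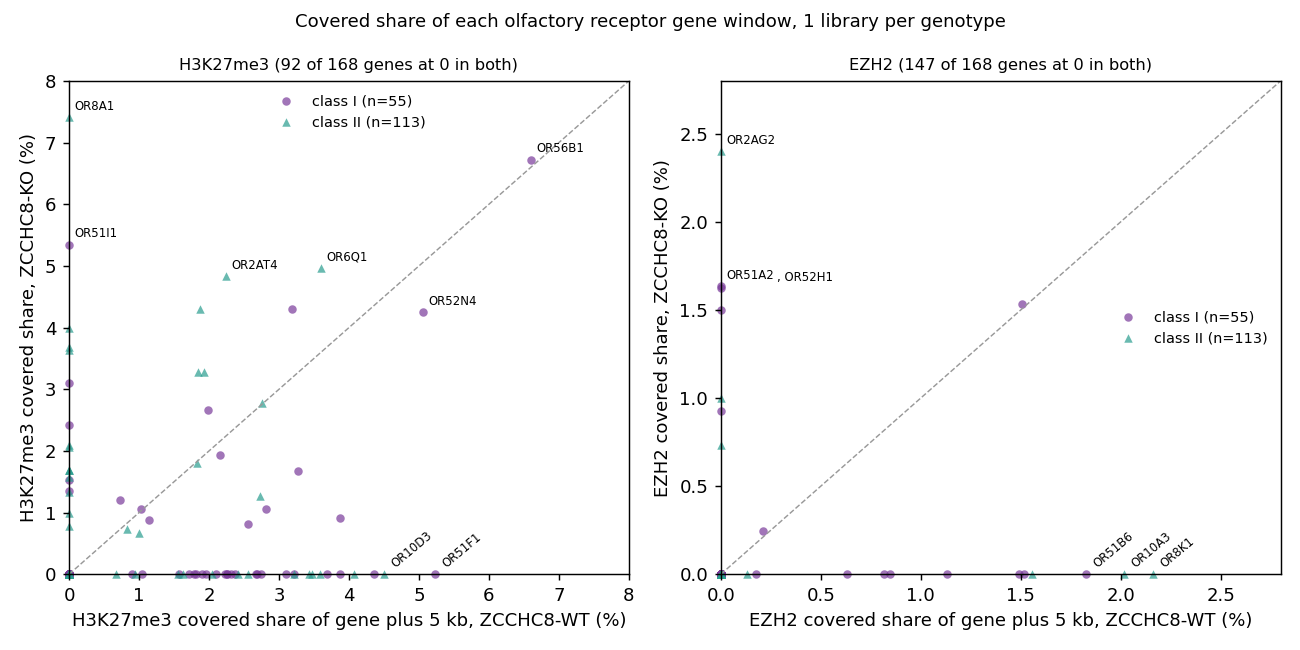
Covered share of each member's window (gene plus 5 kb, in %) in ZCCHC8-WT (x axis) against ZCCHC8-KO (y axis), H3K27me3 at left and EZH2 at right, 1 point per gene, with circles for class I, triangles for class II and a dashed line of equality. Most points lie at the origin, since most genes had no peak of that antibody in either genotype. Of the marked genes most lie on an axis, since they were marked in a single genotype. For H3K27me3, OR56B1 lies near the line at 6.61% and 6.72%.

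The promoters of 4 members are printed because they belong to the gene with a peak on its promoter (OR10A3) and to the genes with the highest H3K27me3 share in WT (OR56B1), the largest deficit in KO (OR51F1) and the largest excess in KO (OR8A1). Each is the 250 bases before the gene's start from the RefSeq promoter table (GRCh38.p14), read 5′ to 3′ on the gene's strand, with the capitals marking 3 of the 4 motifs searched on both strands, namely TATAAA (the TATA box) and, in OR8A1, TAATTA or, in OR10A3, TAATTG. OR10A3 lies on the minus strand at chr11:7941709-7941958, OR56B1 on the plus strand at chr11:5736198-5736447, OR51F1 on the minus strand at chr11:4769939-4770188 and OR8A1 on the plus strand at chr11:124569747-124569996.
OR10A3: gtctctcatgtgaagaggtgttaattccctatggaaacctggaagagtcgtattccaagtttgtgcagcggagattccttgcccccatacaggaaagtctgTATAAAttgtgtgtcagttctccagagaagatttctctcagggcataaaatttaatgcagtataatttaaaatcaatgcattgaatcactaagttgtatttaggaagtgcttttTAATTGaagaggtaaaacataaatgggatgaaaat
OR56B1: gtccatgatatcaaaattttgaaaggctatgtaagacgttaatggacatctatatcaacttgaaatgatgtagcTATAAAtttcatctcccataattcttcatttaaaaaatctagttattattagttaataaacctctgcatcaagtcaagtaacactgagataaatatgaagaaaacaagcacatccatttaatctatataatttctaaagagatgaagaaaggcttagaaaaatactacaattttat
OR51F1: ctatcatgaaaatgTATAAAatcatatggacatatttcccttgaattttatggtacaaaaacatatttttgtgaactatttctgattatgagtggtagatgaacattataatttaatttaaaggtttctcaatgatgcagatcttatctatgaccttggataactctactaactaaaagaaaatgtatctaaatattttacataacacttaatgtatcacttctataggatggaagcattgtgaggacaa
OR8A1: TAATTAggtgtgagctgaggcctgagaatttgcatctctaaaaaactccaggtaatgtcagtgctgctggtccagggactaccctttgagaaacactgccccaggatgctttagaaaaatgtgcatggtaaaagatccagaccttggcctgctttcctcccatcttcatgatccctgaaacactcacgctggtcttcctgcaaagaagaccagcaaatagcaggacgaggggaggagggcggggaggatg

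The H3K27me3 peak of the WT list at chr11:7941719-7941945 lay wholly inside the printed OR10A3 stretch. It was the only peak of the 4 lists on any of 138 promoters (300 bases, 250 before to 50 after the start) that the table holds for 135 members. That is 0.725% of the members' promoters, beside 0.886% of all 35116 promoters in the table for that list. The KO H3K27me3 list and both EZH2 lists had 0 of 138, beside 0.695%, 0.646% and 0.430% of all promoters. With 1 promoter making up 0.725%, a share of 0 and these background shares were not distinguishable at this number.

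The members' promoters are poor in CpG, the dinucleotide that is dense where Polycomb complexes are usually recruited. They held a median of 1 CpG and 37.0% GC, against 14 CpG and 58.7% over all promoters of the table. The 4 printed ones held 2 (OR10A3), 1 (OR56B1), 0 (OR51F1) and 3 (OR8A1) CpG over the 300 bases, and OR8A1, with 50% GC, stands apart from OR56B1 with 28.7% and OR51F1 with 29.7%. TAATTA, a core bound by homeodomain proteins such as LHX2, was in 24.6% of the members' promoters and 4.84% of all. TAATTG was in 24.6% and 7.38%, and the pair share their first 5 letters. The TATA box TATAAA was in 36.2% and 11.5%, while CCCNNGGG, resembling the core bound by EBF factors, was in 7.97% and 19.1%. AT-rich motifs are met more often in AT-rich sequence, and a match is a description of letters, not a binding site. All these promoters are placed by annotated gene starts, and the members' annotated genes are short, with a median of 1103 bp. Whether their starts are transcription starts was not tested. This limits the comparisons with all promoters, of letters and of peaks alike.

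Along the chromosome the 168 genes formed 11 clusters, chained where neighbours lay less than 500 kb apart, with 5 kb added at each end and 5.97 Mb in all. H3K27me3 peaks along them numbered 167 in WT and 117 in KO, a ratio of 0.701 (exact 95% interval 0.548 to 0.893). On the rest of chromosome 11 the numbers were 4015 and 3876, a ratio of 0.965 (0.923 to 1.01). Over all chromosomes the ratio was 0.750, which lies inside the interval of the clusters, so their ratio is not particular to them. The density along clusters was 28.0 peaks per Mb in WT and 19.6 in KO, against 31.1 and 30.0 on the rest of the chromosome. Over all chromosomes it was 30.2 and 22.6. Clusters were thus near the chromosome's density in WT and below it in KO. For EZH2 the clusters held 25 and 15 peaks, 4.19 and 2.51 per Mb, against 10.1 and 6.07 per Mb on the rest of the chromosome. The EZH2 ratio along clusters, 0.60 (0.294 to 1.18), was close to that of the rest of chromosome 11, 0.602.

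**Figure D2:**
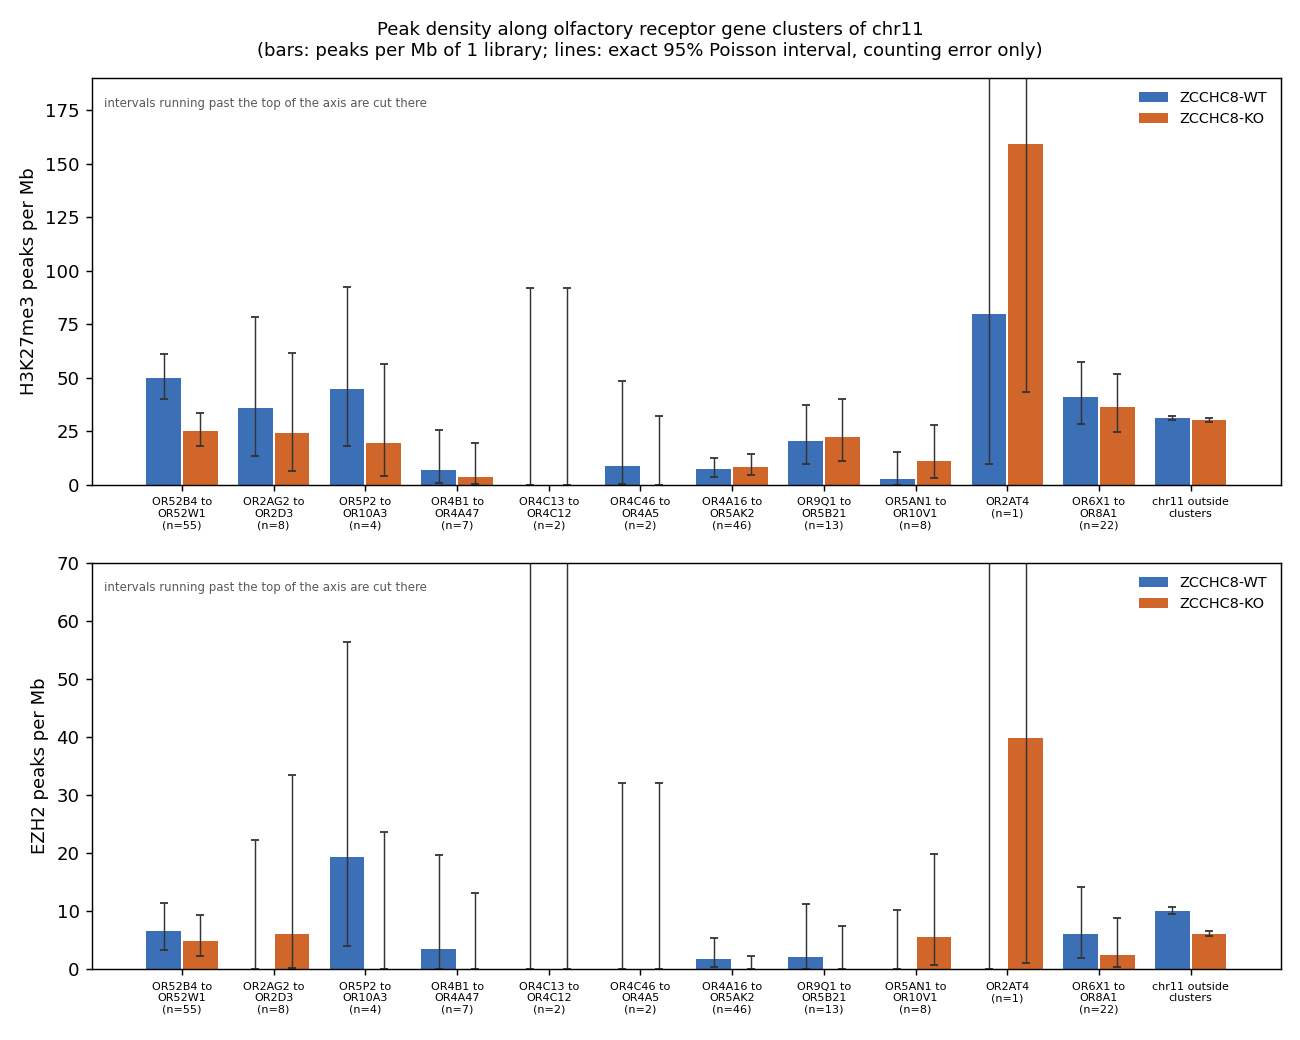
Peaks per Mb (y axis) along each of the 11 clusters and on chromosome 11 outside them, H3K27me3 above and EZH2 below, blue for ZCCHC8-WT and orange for ZCCHC8-KO, with n the number of receptor genes. Bars are 1 library each and lines are exact 95% Poisson intervals for counting error; the class I cluster, OR52B4 to OR52W1, held 49.9 and 25.0 H3K27me3 peaks per Mb, and the short clusters rest on few peaks.

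The difference in H3K27me3 along clusters lay in the class I cluster. This cluster runs from OR52B4 to OR52W1 (chr11:4367263-6200186), holds all 55 class I genes, and surrounds the beta-globin genes. It had 92 H3K27me3 peaks covering 25671 bp in WT and 46 covering 11238 bp in KO, a ratio of 0.50 (0.343 to 0.720). Over the other 10 clusters the numbers were 75 and 71, a ratio of 0.947 (0.675 to 1.33). Without the class I cluster, then, the receptor clusters differed between genotypes about as little as the rest of the chromosome. The ratio over all chromosomes, 0.750, also lies inside the interval of these 10 clusters. EZH2 peaks there numbered 12 in WT and 9 in KO, a ratio of 0.75 (0.279 to 1.94), whose interval holds both 1 and the H3K27me3 ratio.

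Within the class I cluster the difference was uneven, as seen in successive 200-kb bins counted from its start. In the second to the fifth bin (chr11:4562263-5362262), WT H3K27me3 peaks numbered 15, 14, 13 and 12 and KO peaks 2, 1, 2 and 2. That stretch of 0.800 Mb was singled out after the bins were seen. It held 54 WT peaks, or 67.5 per Mb, and 7 KO peaks, or 8.75 per Mb. In the remaining 1.04 Mb of the cluster the numbers were 38 and 39. The right edge of the fifth bin falls inside the OR51B5 gene. Of 150 bins of the same size elsewhere on chromosome 11 with 10 or more WT peaks, 1 (0.667%) had 2 or fewer KO peaks; these limits were set from the values of the stretch, so this is a description only. EZH2 peaks in the stretch numbered 3 in each genotype.

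**Figure D3:**
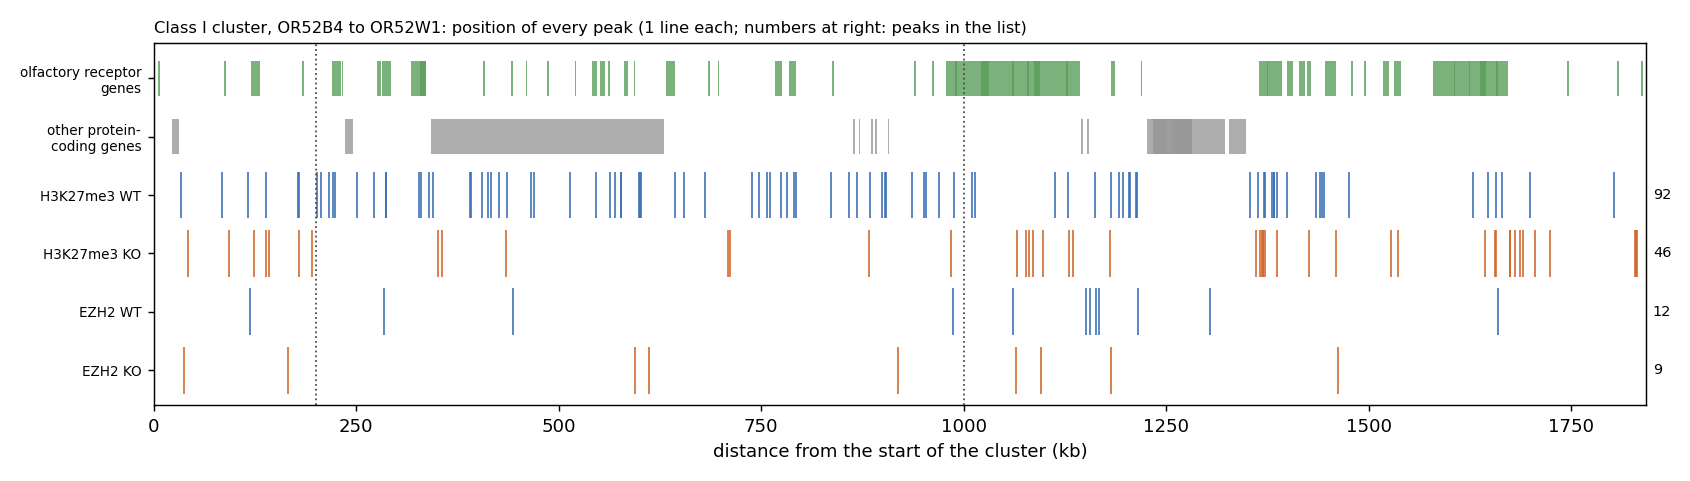
Map of the class I cluster, OR52B4 to OR52W1, with the distance from its start in kb on the x axis and rows for receptor genes, other protein-coding genes and the peaks of the 4 lists, 1 line per peak with the total at right. Between the dotted lines at 200 and 1000 kb the WT row holds 54 H3K27me3 peaks and the KO row 7; on either side the rows hold 38 and 39.

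The stretch holds 25 receptor genes by midpoint, from OR52I2 to OR51B6, of which 18 were marked by H3K27me3 in WT and 0 in KO. Among the 30 other class I genes, 17 were marked in each genotype. The 18 include OR51E1 and OR51E2, receptors for short fatty acids that are also known outside the nose, for instance in prostate. OR51E1 had 2 peaks covering 2.32% of its window in WT, with a top score of 10, and 0 in KO. OR51E2 and OR51C1, whose genes overlap, share the same 3 WT peaks, which cover 2.74% and 4.35% of their windows, and had no KO peak. The other 7 genes of the stretch (OR52I1, OR51F2, OR51S1, OR51T1, OR51A2, OR52E2 and OR51B2) had no H3K27me3 peak in either genotype.

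OR51F1 (chr11:4768979-4769938) had the largest deficit of any member. Its window held 2 WT peaks covering 574 bp, 5.24%, and no KO peak. One of them, at chr11:4766876-4767234, 1745 bp from the gene, had a score of 14, the highest of any H3K27me3 peak along the receptor clusters; scores on the rest of chromosome 11 reached 31. OR52A1, with 3 WT peaks covering 3.88% of its window and none in KO, and OR52I2, with 3 covering 3.68% and none, were the next of the stretch after OR51C1. Across the 18 genes the covered share in WT ran from 0.899% for OR51L1 to 5.24% for OR51F1.

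Genes of other families in the clusters were covered by the same peaks in part. MMP26, a matrix metalloproteinase whose long gene spans several receptors, held 20 WT and 3 KO H3K27me3 peaks. H3K27me3 marked 4 of the 5 globin genes in WT and 1 in KO: HBE1, the embryonic beta-like globin, had 2 WT peaks over 10.5% of its window and none in KO, and HBB, the adult beta chain, had 1 over 3.34% and none. HBG1, a fetal globin, had 1 peak in each list, at different positions, with 2.04% and 1.48% covered, and HBG2 had none. Of 8 TRIM genes in the clusters, 3 were marked in WT (TRIM68 in the stretch, TRIM21 and TRIM22 outside it) and 0 in KO. Over all 21 genes other than receptors inside the clusters, 11 were marked in WT and 3 in KO, beside 26.0% and 23.1% of all protein-coding genes. These genes differ in length, some share a peak, as HBB and HBD do in WT, and the stretch was singled out on these peaks. The counts are therefore a description only.

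Right of the stretch, receptor genes with H3K27me3 in KO appeared. OR51I1 and OR51I2, neighbours inside the long OR51B5 gene, had no WT peak. OR51I1 had 2 KO peaks covering 585 bp, 5.34% of its window, and OR51I2 had 2 covering 3.11%. OR51B5 itself, annotated over 165.3 kb, contains these peaks and had 5 WT and 8 KO peaks, with 0.732% and 1.20% of its window covered. Farther right, OR56B1 (chr11:5736448-5738523), which lies inside OR52N4, had 3 peaks in each list, covering 798 bp (6.61%) in WT and 812 bp (6.72%) in KO, all of which also fall to OR52N4. It had the highest share of any member in WT and the second highest in KO. OR52N4 held 7 peaks in each list, covering 5.06% and 4.25% of its window, and 2 of its WT peaks overlapped a KO peak. OR56A1, at the far side, had 2 WT and 4 KO peaks, with 3.19% and 4.30% covered.

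By family, the class I groups did not share 1 course. OR51 genes went from 14 of 23 marked by H3K27me3 in WT to 3 in KO, OR52 genes from 16 of 25 to 10, and OR56 genes from 5 of 7 to 4. Within the stretch H3K27me3 marked 13 of 18 OR51 genes and 5 of 7 OR52 genes in WT and none of either in KO. In the rest of the cluster it marked 1 of 5 OR51 genes in WT and 3 in KO, 11 of 18 OR52 genes in WT and 10 in KO, and 5 of the 7 OR56 genes in WT and 4 in KO. OR51 and OR52 genes thus had different counts by position, though the stretch was singled out on these peaks. Summed over the class I cluster, H3K27me3 covered shares were lower in KO on every type of ground. Receptor genes themselves had 1.47% covered in WT and 1.06% in KO, the flanking 5 kb 2.05% and 0.623%, other protein-coding genes 1.18% and 0.170%, and the remaining ground 1.25% and 0.595%. By annotated span, the receptor genes in WT were thus covered less than their flanks and about as much as the remaining ground. In KO they were covered more than either. These spans make up 463750 bp, with 165335 bp in OR51B5 and 79760 bp in OR56A3, against a median of 1103 bp over all members. Those 2 genes held 2106 and 784 of the 4904 bp under KO peaks, so the shares lean on few long genes. In the other 10 clusters the receptor genes had 0.480% covered in WT and 0.940% in KO, while their flanks had 0.576% and 0.426%. OR9Q1 alone spans 157736 of the 551984 bp of receptor genes there.

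The large class II cluster OR4A16 to OR5AK2 (chr11:55343201-56989843), was nearly free of peaks. It holds 46 members in 1.66 Mb and had 12 H3K27me3 peaks in WT and 14 in KO, 7.24 and 8.45 per Mb, with 3 EZH2 peaks in WT and 0 in KO. Only 3 of its 46 genes were marked by H3K27me3 in WT (OR8I2, OR8K1 and OR8U1) and 3 others in KO (OR5D18 and OR5L2, which share 1 peak between them, and OR9G4). The 3 clusters before it on the chromosome, OR4B1 to OR4A47 with 7 genes, OR4C13 to OR4C12 with 2 and OR4C46 to OR4A5 with 2, had no marked gene in any list. Together these 4 clusters, with 57 genes in 2.09 Mb, held 15 H3K27me3 peaks in each genotype, 7.16 per Mb. No mappability data were used here, so whether reads can be placed equally well on near-identical receptor copies was not tested.

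The cluster near the end of the long arm, OR6X1 to OR8A1 (chr11:123753580-124571374), was the other long cluster with many H3K27me3 peaks. Its 22 genes in 0.828 Mb had 34 peaks in WT and 30 in KO, 41.1 and 36.2 per Mb, against 49.9 and 25.0 in the class I cluster, and 9 genes were marked in each. Position within it differed between the lists: the third 200-kb bin held 15 WT and 4 KO peaks and the fourth 7 and 13. OR10D3, in the third bin, had 2 WT peaks covering 4.50% of its window and none in KO. OR8G5, a neighbour, had 3 covering 3.21% and none. In the fourth bin OR8B4 had 2 KO peaks covering 3.63%, OR8B12 had 2 covering 3.69%, and neither had a WT peak. OR8A1 (chr11:124569997-124571374), the last gene, had the largest excess in KO, with 2 peaks covering 843 bp, 7.41% of its window, and none in WT. OR10G4, a receptor for guaiacol, had no peak in any list.

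**Figure D4:**
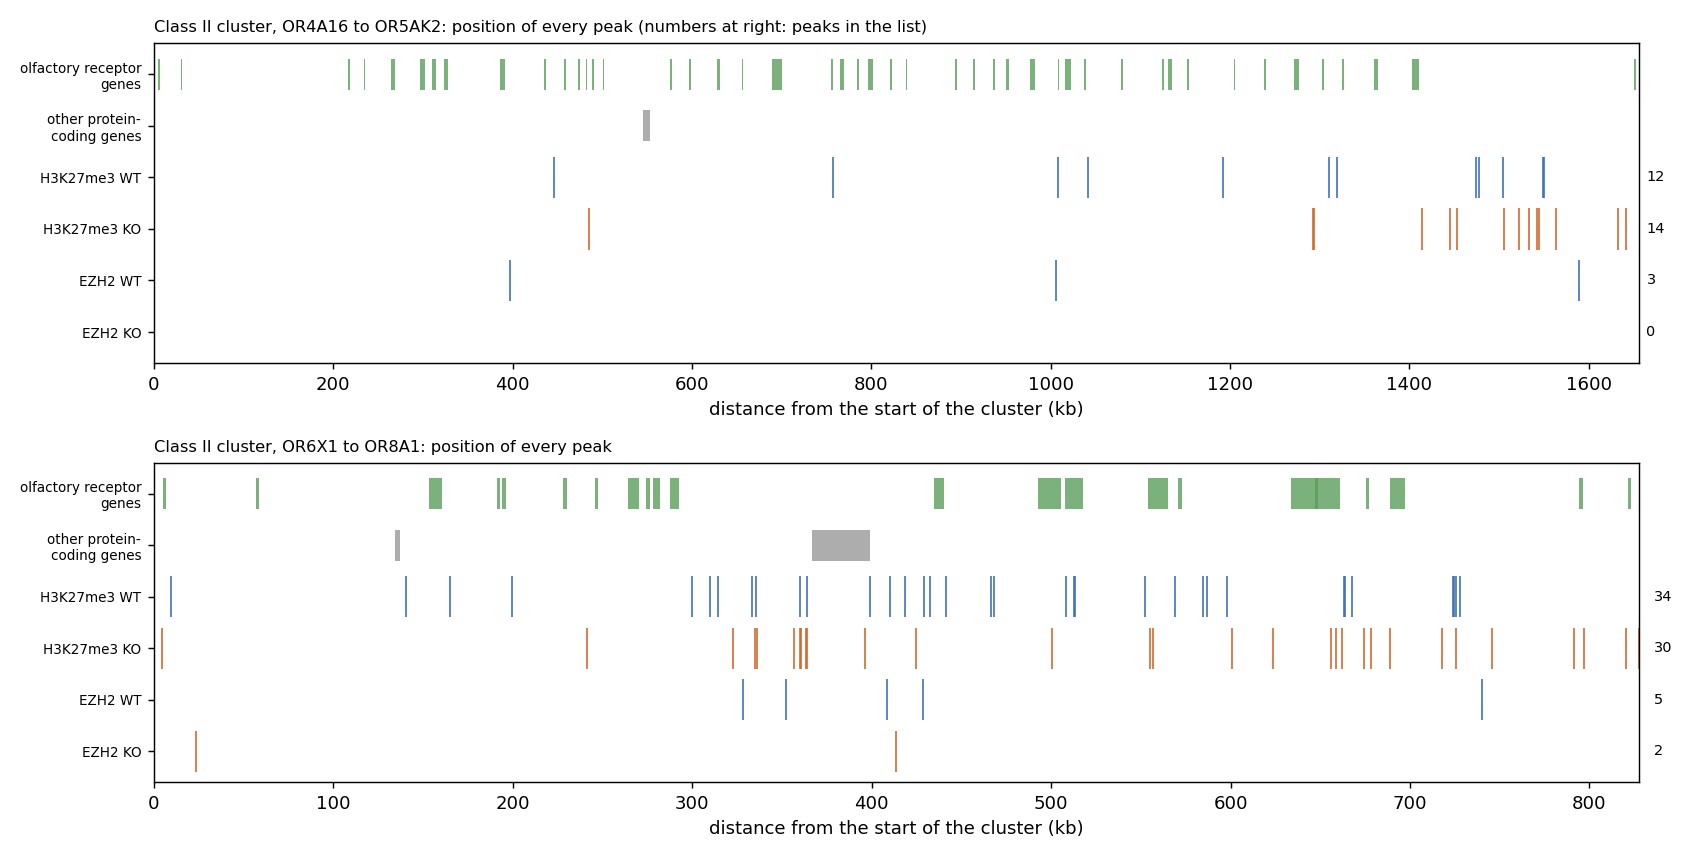
Maps of 2 class II clusters, OR4A16 to OR5AK2 above and OR6X1 to OR8A1 below, with the distance from the cluster's start in kb on the x axis and the rows of the class I map. The upper cluster has 12 WT and 14 KO H3K27me3 peaks over 46 genes, with 9 of the KO peaks between 1400 and 1600 kb, where receptor genes are sparse; the lower one has 34 and 30 over 22 genes.

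The smaller clusters gave few peaks each. OR9Q1 to OR5B21, with 13 genes, held 10 H3K27me3 peaks in WT and 11 in KO and marked 4 genes in each. OR6Q1, inside the long OR9Q1 gene, had 1 WT and 2 KO peaks with 3.61% and 4.98% covered; OR5B2 had none in WT and 3 in KO, 3.99%. OR2AG2 to OR2D3, with 8 genes, held 6 and 4 peaks, and OR2D3 had 2 WT peaks covering 4.08% and none in KO. OR5P2 to OR10A3, with 4 genes, held 7 and 3 peaks, of which 1, the promoter peak of OR10A3, reached a receptor window. OR5AN1 to OR10V1, with 8 genes, held 1 and 4 peaks and had 1 and 4 genes marked; OR5AN1, a receptor for musk odorants, had 1 KO peak covering 0.780% of its window. OR2AT4 stands alone at chr11:75081753-75096890 and is known as a sandalwood receptor that is also present in skin cells. It had 2 WT peaks covering 2.24% of its window and 4 KO peaks covering 4.84%.

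EZH2 peaks at receptor genes were few and were listed at mostly different genes in the 2 genotypes. EZH2 marked 10 of the 55 class I genes (18.2%) in WT and 6 (10.9%) in KO. Of the 113 class II genes it marked 4 (3.54%) and 3 (2.65%), beside 27.1% and 18.4% of all genes. In equal windows around gene midpoints it marked 7 class I genes (12.7%) and 5 (9.09%), above the 7.80% and 4.75% of all genes. Class II shares in those windows were 2.65% and 1.77%. Of the members, 12 (7.14%) were marked in WT alone (14.4% of all genes), 7 (4.17%) in KO alone (5.70% of all genes) and 2 (1.19%) in both (12.7% of all genes). The 2 were OR51B5 and OR51Q1, which lies inside it, so they rest on shared peaks. OR51Q1 had 1 EZH2 peak in each list, covering 1.51% and 1.53% of its window, and these did not overlap. The highest EZH2 shares in WT were those of OR8K1 (2.16%), OR10A3 (2.02%), OR51B6 (1.83%), OR10A6 (1.56%) and OR52R1 (1.52%), all with 0 in KO. In KO they were those of OR2AG2 (2.40%), OR51A2 (1.64%), OR52H1 (1.62%) and OR51I2 (1.5%), all with 0 in WT, and OR51Q1. OR5A2, with 1.00% in KO and 0 in WT, completed the largest excesses. Each of these genes had a single EZH2 peak in its window.

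Most members with an EZH2 peak also had an H3K27me3 peak in the same genotype, 12 of 14 in WT and 7 of 9 in KO. Over all protein-coding genes most did as well, 3207 of 5388 in WT and 2379 of 3653 in KO. Both antibodies marked 12 members (7.14%) in WT, beside 16.1% of all genes, and 7 (4.17%) in KO, beside 12.0%. The 12 were OR51D1, OR51E1, OR52R1, OR51B6, OR52B6, OR52K1, OR56A1, OR56A3, OR51B5, OR10A3, OR8K1 and OR9Q1. The 7 were OR51I2, OR52H1, OR52N2, OR51B5, OR2AG2, OR5A2 and OR2AT4. The peaks themselves did not coincide: 0 of 25 EZH2 peaks along the clusters in WT overlapped an H3K27me3 peak, which allows a share of up to 12.0%, against 7.6% (99 of 1302) on the rest of chromosome 11. In KO 0 of 15 did, which allows up to 20.0%, against 15.6% (122 of 784). At these numbers a share as on the rest of the chromosome was not distinguishable from 0. The median distance from an EZH2 peak to the nearest H3K27me3 peak was 4.82 kb in WT and 5.06 kb in KO, against 5.10 kb and 2.94 kb on the rest of the chromosome.

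Individual H3K27me3 peaks rarely recurred between the genotypes. Of the 167 WT peaks along clusters, 10 were met by a KO peak (1 bp or more in common), 5.99% (Clopper-Pearson 95% interval 2.91 to 10.7), against 13.9% (12.8 to 15) on the rest of chromosome 11. In the class I cluster 3 of 92 did, 3.26% (0.678 to 9.23). Over the other 10 clusters 7 of 75 did, 9.33% (3.84 to 18.3), an interval that holds the share on the rest of the chromosome. It also overlaps the interval of the class I cluster, so these shares were not distinguishable from each other at these numbers. The class I cluster had 46 KO peaks beside the 92 in WT, and the part of this in its share was not tested. The gap to the rest of the chromosome was widest among peaks with a score of 9 or more: 0 of 17 were shared along clusters, which allows up to 17.6%, against 25.4% (22.2 to 28.7) of 714 on the rest of the chromosome. That class is open at the top, with WT scores up to 14 along clusters and up to 31 outside them, so its 2 sides are not alike in score. For scores of 7 and 8 the shares were 6.67% (2.2 to 14.9) along clusters and 13.7% (12.2 to 15.4) outside them, and for scores from 4 to 6 they were 6.67% (2.2 to 14.9) and 8.72% (7.35 to 10.3). The intervals overlap in both of these classes. The shared peaks lay in OR52N4 (2), in OR56A3 near OR56A1, near OR2AG1 and in OR9Q1 beside OR6Q1, with 5 more away from receptor genes. Of EZH2 WT peaks 0 of 25 overlapped a KO peak, which allows up to 12.0%, against 5.22% on the rest of the chromosome.

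The receptor pseudogenes of chromosome 11 are relics that no longer encode a receptor. They were taken from the whole chromosome, not only from the members' clusters, and were not split by class. H3K27me3 marked 46 of 205 (22.4%) in WT and 34 (16.6%) in KO, and EZH2 marked 5 (2.44%) and 6 (2.93%), beside the members' 34.5%, 23.8%, 8.33% and 5.36% in the same order. Among the 135 members whose strand is known from the promoter table, H3K27me3 in WT covered 0.987% of the 5 kb upstream, 0.799% of the gene and 0.960% of the 5 kb downstream. In KO the shares were 0.646%, 0.684% and 0.417%. In WT the upstream and downstream sides thus had nearly equal shares.

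The other genes of the olfactory pathway are mostly longer than the receptors, so their counts are not comparable with the members'. Of 24 genes listed for signal transduction, receptor trafficking and receptor choice, 14 were marked by H3K27me3 in each genotype, beside 26.0% of all genes in WT and 23.1% in KO, and EZH2 marked 12 in WT and 14 in KO, beside 27.1% and 18.4%. EMX2 and LHX2, homeodomain factors of olfactory neurons and of other tissues, had the highest EZH2 shares of the list, 33.0% in WT and 26.9% in KO for EMX2 and 10.7% and 7.99% for LHX2. PDE1C, a phosphodiesterase, had 125 WT and 51 KO H3K27me3 peaks, with 5.64% and 1.77% of its window covered. REEP1, a receptor-trafficking protein, had 10 and 20 peaks, with 2.38% and 4.69%. GNAL, the G protein subunit that couples the receptors, had 10 and 15, with 1.31% and 2.17%. OMP, the marker of mature olfactory neurons, which also lies on chromosome 11, had no peak in any list, like CNGA2, a subunit of the transduction channel.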

How the data were processed

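Per the labels' protocols, ACHN chromatin was fixed, sonicated, precipitated and sequenced as read pairs. Of 6 samples, 4 have a peak list and the 2 inputs have none. Groups came from genotype and title. Cutadapt 1.9.3, Bowtie2 2.2.4 and hg38 are named in the submitters' processing notes; the peak caller is not named in the sources used here, and 1e-3 stands in the peak names as the p threshold. Each deposited list gives a peak's length and the authors' score; what the score measures was not given, so it only ranks or filters peaks, and its scale could differ between WT and KO. Peaks on identical lines were counted once, and coordinates are 1-based.

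Genes came from the RefSeq table GRCh38.p14; 171 protein-coding genes on alternate or patch sequences were left out. A peak marks a window of gene plus 5 kb that it overlaps by at least 1 bp. Shares have exact Clopper-Pearson intervals, except that a share of 0 has the limit of 3 counts of the total, and a ratio's interval is the exact binomial one of KO peaks among the sum. With 1 library per group no test was run. Promoter sequences were matched for 135 of 168 members. The routines were written in Python 3.11.15 with SciPy 1.17.1, pandas 2.3.3, NumPy 2.4.6 and matplotlib 3.10.9. The counting of peaks in gene windows was checked on these lists, by a direct recount for randomly drawn genes and by removing the peaks around others. Named genes are, per antibody, the 5 members with the highest covered share in each genotype, the 5 largest deficits and excesses, those marked by both antibodies, those at cluster ends, and a pathway list, of which a selection is printed; other genes named were chosen after their values were seen. The members and lists were chosen with earlier results of these data known.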

Additional observations from a re-analysis of the deposited data

How the results depend on the processing

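No paired analysis was possible because each group has 1 library. Counts of marked members depended on the window: with the gene alone H3K27me3 marked 18 members in WT and 17 in KO and EZH2 6 and 5, and with 2 kb added H3K27me3 marked 34 in WT. With a score of 7 or more in every list, H3K27me3 marked 34 and 9 members and EZH2 5 and 0, the H3K27me3 ratio along clusters was 0.109, 1.09% of its WT peaks were shared, and the EZH2 ratio was 0. This threshold left 92 WT and 10 KO H3K27me3 peaks. Requiring 50% of the WT peak to be overlapped gave 2.40% shared. Without the class I cluster, an alternative chosen after seeing the data, H3K27me3 marked 23 and 23 members and EZH2 4 and 3, and the H3K27me3 ratio was 0.947. Windows with 10 kb, peak midpoints, equal windows around gene midpoints and other chaining distances moved no count by more than 1.5 times. Leaving out near-identical receptor copies was not run, since no protein sequences were at hand. The number of peaks, 15 to 167 along the clusters, and unknown read depth limit what could be seen.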
